A study of Mus musculus with 14 samples.

Results

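The regions described here are stretches of mouse chromatin where the ends of 2 different protein-coding genes lie within 1 kb of each other. They were found among 21523 protein-coding genes on chromosomes 1 to 19 and X of the mm10 build, whose 43046 start and end coordinates were paired wherever they came within 1 kb and the genes overlapped by no more than 1 kb. That gave 3077 shared windows, each running from 1 kb before the first end to 1 kb after the second, out of 37125 windows in all; the other 34048 windows held a single gene end with 1 kb on either side. The shared windows covered 3001 gene pairs and 5180 genes. The median distance between the ends was 250 bp. Strand was given for 80.3% of the genes (none on chromosome 18), and it sorted the shared windows into 910 head-to-head windows (2 gene starts), 554 tandem windows (1 start and 1 finish), 731 tail-to-tail windows (2 finishes) and 882 windows in which the strand of a gene was not given. The windows overlapped in part: 288 of them overlapped another shared window, so neighbouring windows can hold the same summit.

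A large share of mammalian genes start close to a neighbour that is read in the opposite direction, so that a stretch of DNA serves as promoter for both. Such bidirectional promoters are often rich in CpG and poor in TATA boxes, and many drive housekeeping genes of metabolism, DNA repair and protein synthesis. Acetylation of lysine 27 of histone H3 (H3K27ac) marks active promoters and enhancers, whereas gene finishes are not known as typical sites of this mark. Histone deacetylases remove such acetyl groups, and pracinostat inhibits them.

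H3K27ac was profiled by CUT&Tag, in which an antibody brings a DNA-cutting transposase to the marked nucleosomes. The cells were CD11b+ tumour-associated macrophages sorted from T387 human glioblastoma xenografts growing in the brains of NSG mice, a strain that lacks mature lymphocytes and natural killer cells but keeps its own macrophages. CD11b is also found on other myeloid cells. Mice received pracinostat (30 mg/kg by oral gavage, although the text on its preparation gives 3 mg/kg) or the DMSO vehicle, 4 times per week for 3 weeks from day 7 after implantation. H3K27ac libraries came from 4 pracinostat and 3 DMSO replicates, with as many libraries made with non-specific IgG. The labels call them biological replicates but do not tie libraries to animals; the p-values below therefore rest on the spread among libraries, which may be technical in part.

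Each H3K27ac library listed 208401 to 291042 peak summits, except DMSO replicate 2, which listed 53503; the IgG libraries listed 2194 to 18517. The number of reads per library was not used here, so depth is known only through these lists. Each window was scored by its highest summit (the deposited −log10 significance), and the score was turned into a percentile among all 37125 windows of the library. Windows without a summit tie at the bottom, at percentiles of 27.04 to 29.8 in the 6 longer lists and of 38.8 in DMSO replicate 2. In that short list weak summits also rank high. At Cnih2/Rab1b a score of 1.43 stood at percentile 81.7 in DMSO replicate 2, where a score of 20.1 stood at 80.5 in DMSO replicate 1. All 10 macrophage markers, among them Spi1, Csf1r and Itgam, had a summit at a gene end in all 7 H3K27ac libraries. For markers the percentile was taken otherwise: each gene took its higher end and was ranked among all 21523 genes. On that scale macrophage markers had a mean percentile of 86.6 in pracinostat and 84.2 in DMSO libraries. Markers of neutrophils, lymphocytes, neurons and astrocytes, oligodendrocytes and endothelium averaged 30.2 to 49.8 in pracinostat and 28.2 to 46.4 in DMSO libraries. Neutrophil markers lay at 37.6 to 42.1 with pracinostat and 44.0 to 48.7 with DMSO. Lymphocyte markers went the other way, at means of 48.0 and 38.3, with overlapping groups. In all 7 libraries 1 of 6 neutrophil, 1 of 4 oligodendrocyte and 1 of 4 endothelial markers had a summit. These differences were not tested.

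The letters of 6 head-to-head promoters show what such a stretch looks like; 4 of them carried H3K27ac in all 7 libraries and 2 had no summit in any. Each line gives 300 bases of RefSeq sequence on build GRCm38.p6 (the assembly called mm10), read 5′ to 3′ along the second gene of the pair, from 250 bases before its start in the RefSeq promoter table to 50 after it. In the Cdc26/Prpf4 line the Prpf4 start used for the windows is base 230, so that line reaches less far before it and farther after it. Capitals mark exact matches, on either strand, to any of 10 motifs: the GC box spelled GGGCGG that binds Sp-type factors, the box of the factor NF-Y spelled CCAAT, the E box spelled CACGTG, the site of ETS factors spelled CCGGAAGT, the form of it preferred by PU.1 and spelled GAGGAAGT, the site of NRF1 spelled GCGCATGCG, that of YY1 spelled AAGATGGCG, the Kaiso-type element spelled CTCGCGAGA, the AP-1 site spelled TGACTCA and the TATA box spelled TATAAA. Matches may overlap where motifs share letters. A match describes the letters and does not show that a factor binds.
Cdc26/Prpf4: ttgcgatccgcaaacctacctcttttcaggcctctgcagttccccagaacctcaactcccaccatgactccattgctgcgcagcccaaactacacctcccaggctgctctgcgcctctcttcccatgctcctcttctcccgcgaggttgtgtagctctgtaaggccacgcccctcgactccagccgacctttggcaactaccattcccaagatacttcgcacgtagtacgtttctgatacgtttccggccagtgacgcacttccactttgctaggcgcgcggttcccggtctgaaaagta
Hspe1/Hspd1: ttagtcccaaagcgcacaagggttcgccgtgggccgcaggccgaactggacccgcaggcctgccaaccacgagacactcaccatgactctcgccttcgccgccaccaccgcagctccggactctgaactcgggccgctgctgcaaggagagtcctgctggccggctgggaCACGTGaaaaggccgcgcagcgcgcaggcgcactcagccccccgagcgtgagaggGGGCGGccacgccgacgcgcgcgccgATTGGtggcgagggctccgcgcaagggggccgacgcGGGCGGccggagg
Psmb9/Tap1: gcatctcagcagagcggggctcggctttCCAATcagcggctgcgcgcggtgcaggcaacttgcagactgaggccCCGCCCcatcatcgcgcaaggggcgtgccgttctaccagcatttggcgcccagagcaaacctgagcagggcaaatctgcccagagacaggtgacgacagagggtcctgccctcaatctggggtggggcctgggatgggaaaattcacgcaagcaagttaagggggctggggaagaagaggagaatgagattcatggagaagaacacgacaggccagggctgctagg
Hps5/Gtf2h1: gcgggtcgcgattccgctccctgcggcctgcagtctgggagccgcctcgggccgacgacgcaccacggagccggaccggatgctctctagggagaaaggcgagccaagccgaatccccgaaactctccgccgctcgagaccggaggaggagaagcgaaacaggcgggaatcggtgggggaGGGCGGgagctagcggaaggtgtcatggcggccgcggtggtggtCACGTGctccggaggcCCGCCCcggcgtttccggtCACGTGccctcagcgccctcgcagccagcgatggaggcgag
Zic4/Zic1: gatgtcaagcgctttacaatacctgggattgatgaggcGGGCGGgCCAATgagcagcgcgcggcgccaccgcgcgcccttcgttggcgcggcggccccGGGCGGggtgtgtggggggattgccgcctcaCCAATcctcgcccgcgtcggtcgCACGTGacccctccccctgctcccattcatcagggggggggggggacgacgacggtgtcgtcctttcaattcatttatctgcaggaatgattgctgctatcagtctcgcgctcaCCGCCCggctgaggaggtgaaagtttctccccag
Olfr32/Olfr1270: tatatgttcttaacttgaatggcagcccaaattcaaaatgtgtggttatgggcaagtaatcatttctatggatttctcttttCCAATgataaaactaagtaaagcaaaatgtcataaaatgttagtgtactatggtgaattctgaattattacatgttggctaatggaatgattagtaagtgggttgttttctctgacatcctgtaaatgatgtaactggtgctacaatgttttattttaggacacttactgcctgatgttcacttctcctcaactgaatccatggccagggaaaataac
The Cdc26/Prpf4 line is read along Prpf4, a splicing protein (chr4:62408533-62408832, plus strand), and holds the starts of both genes; none of the 10 motifs occurred in it. It belongs to the shared window with the highest mean percentile. The Hspe1/Hspd1 line is read along Hspd1 (chr1:55088194-55088493, minus strand), whose product Hsp60 forms the mitochondrial chaperonin together with Hsp10 from Hspe1; it has 39 CpG dinucleotides. The Psmb9/Tap1 line is read along Tap1 (chr17:34187306-34187605, plus strand), which carries peptides into the endoplasmic reticulum for MHC class I, while Psmb9 makes a subunit of the immunoproteasome. The Hps5/Gtf2h1 line is read along Gtf2h1 (chr7:46795844-46796143, plus strand), a subunit of the transcription factor TFIIH, and has 39 CpG dinucleotides as well. The Zic4/Zic1 line is read along Zic1 (chr9:91365719-91366018, minus strand), a zinc-finger factor of the developing nervous system; with 65.3% G and C, 31 CpG dinucleotides and 3 GC boxes, it is CpG-rich, and no library had a summit in its window. The Olfr32/Olfr1270 line is read along Olfr1270 (chr2:90149987-90150286, minus strand), an olfactory receptor gene, and has 34.3% G and C and 0 CpG dinucleotides.

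Shared windows carried H3K27ac far more often than windows with a single gene end. In pracinostat libraries 75.9 ± 1.62% of shared windows held a summit, against 39.9 ± 2.17% of single-end windows (SD, n = 4). In DMSO libraries the shares were 68.4 ± 14.9% of shared windows and 33.1 ± 11.8% of single-end windows (SD, n = 3); the wide spread comes from DMSO replicate 2, at 51.3% of shared and 19.8% of single-end windows. Over the 7 libraries the difference was 35.6 ± 2.03 percentage points, with shared windows ahead in 7 of 7 (two-sided exact sign-flip permutation test, p = 0.0156, the smallest that 7 libraries allow). Each score pools all sorted cells of a library, so fewer cells with the mark and a weaker mark in each cell cannot be told apart. The mean percentile was 69.2 in shared and 48.3 in single-end windows, a difference of 21.0 ± 2.04 (SD, n = 7; exact p = 0.0156). Summits were also denser, at 0.798 per kb in shared and 0.349 per kb in single-end windows, a difference of 0.449 ± 0.112 (SD, n = 7; exact p = 0.0156). A summit was present in all 7 libraries in 1380 shared windows (44.8%) and in 5252 single-end windows (15.4%). No library had one in 183 shared windows (5.95%) and in 11443 single-end windows (33.6%).

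The IgG libraries gave the background. Their summits fell in 0.961% of shared and 0.660% of single-end windows on average, a difference of 0.301 ± 0.203 percentage points that was positive in 6 of 7 libraries (SD, n = 7; exact sign-flip permutation p = 0.0313). With all windows cut to 2 kb, the IgG difference was 0.148 points (exact p = 0.156). For H3K27ac the shared windows stayed ahead at that equal length, with a mean percentile of 68.1 against 48.4 in single-end windows. A summit in any IgG library was found in 199 shared windows (6.47%), against 4.48% of single-end windows. The most IgG libraries with a summit in a shared window was 2, at Alg12/Creld2, Mrpl47/Ndufb5 and Aldh3b2/Aldh3b3 among others.

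The level of the mark followed the orientation of the genes. Head-to-head windows, with their 2 gene starts, were marked in 92.7 ± 0.92% of cases in pracinostat libraries (SD, n = 4) and 88.1 ± 7.74% in DMSO libraries (SD, n = 3), and 705 of the 910 (77.5%) had a summit in all 7 libraries. Tandem windows were marked in 74.8 ± 2.18% of cases with pracinostat and 68.9 ± 14.7% with DMSO. Tail-to-tail windows, whose ends are both finishes, were marked in 58.3 ± 3.43% of cases with pracinostat and 47.4 ± 21.4% with DMSO, and 93 of the 731 (12.7%) had a summit in all 7 libraries. Head-to-head windows reached a mean percentile of 84.5 over the 7 libraries, tandem windows 69.1, and tail-to-tail windows 53.4. Single gene starts averaged 56.8 and single gene finishes 40.3.

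**Figure D1:**
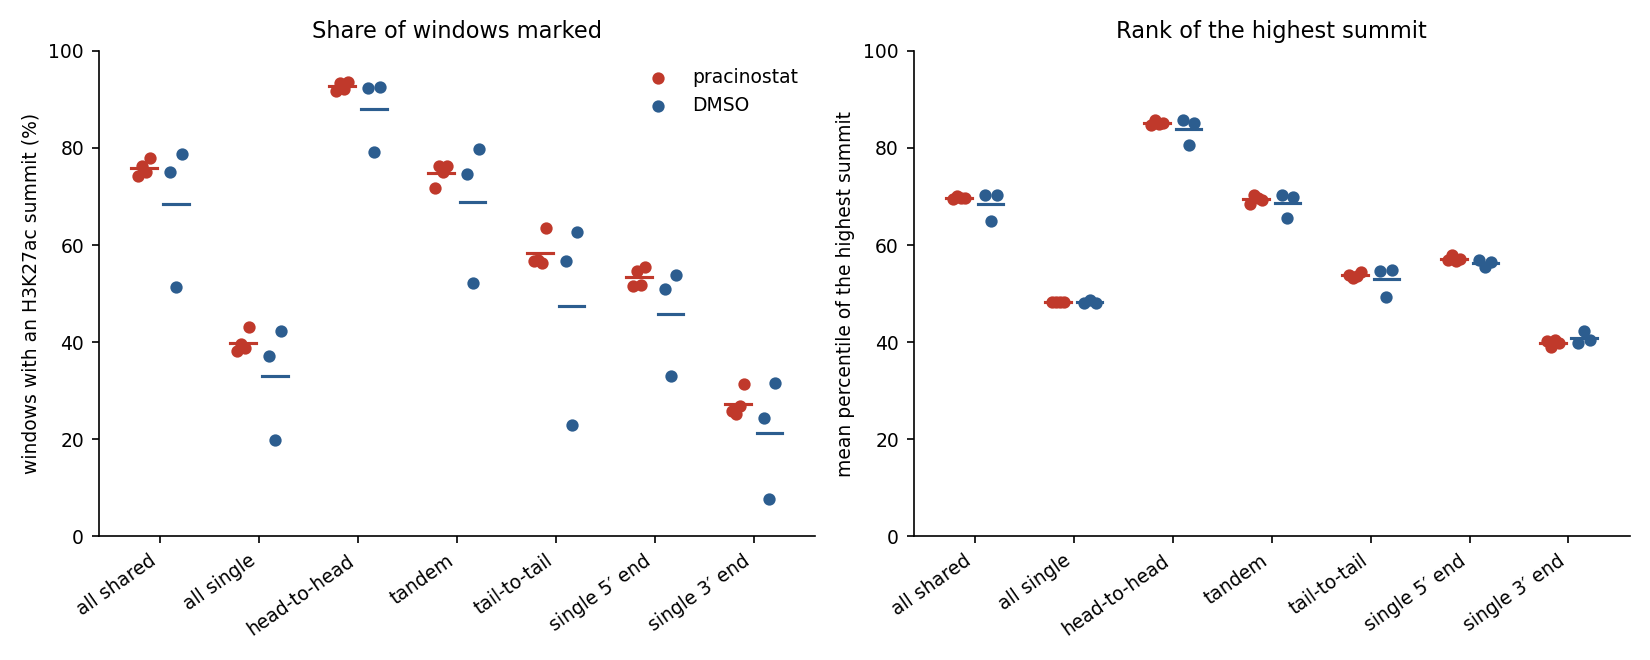
The left plot gives the percentage of windows with an H3K27ac summit and the right plot the mean percentile of the highest summit, for each kind of window; every point is a library (pracinostat in red, DMSO in blue) and the short lines are group means. Head-to-head windows lie highest in both plots in every library, and the DMSO point that drops on the left is replicate 2, with 53503 summits.

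The steps between the orientations were larger than the spread between libraries. Head-to-head windows exceeded single gene starts by 27.7 ± 1.25 percentile points and tail-to-tail windows by 31.1 ± 0.695, and tandem windows exceeded tail-to-tail windows by 15.7 ± 0.868 (SD, n = 7; two-sided exact sign-flip permutation test, p = 0.0156 for each, unchanged by Benjamini-Hochberg adjustment over these 3). Head-to-head windows also held several summits more often: 83.0 ± 2.78% had at least 2 in pracinostat libraries and 66.1 ± 25.3% in DMSO libraries. For tail-to-tail windows those shares were 30.3 ± 3.54% with pracinostat and 22.02 ± 15.3% with DMSO. A percentile of 90 or more was reached by 51.5 ± 1.07% of head-to-head windows in pracinostat libraries and 54.1 ± 3.13% in DMSO libraries. Of tail-to-tail windows, 2.63 ± 0.616% reached it with pracinostat and 2.69 ± 0.48% with DMSO.

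The comparisons in this and the following paragraphs on composition, distance and position were chosen after values had been seen, 12 in all, and their p-values were adjusted over these 12. Tandem windows exceeded single gene starts by 12.3 ± 1.26 points, at 69.1 against 56.8, in 7 of 7 libraries (exact sign-flip permutation test, adjusted p = 0.0170). Tail-to-tail windows exceeded single finishes by 13.1 ± 2.74 points, at 53.4 against 40.3, again in 7 of 7 (exact permutation test, adjusted p = 0.0170). Leaving out every window with a gene start within 5 kb, a difference of 10.46 ± 2.52 was found, at 49.5 in 455 tail-to-tail windows against 39.0 in 9907 single finishes (exact permutation test, adjusted p = 0.0170). These gaps were smaller with each list limited to its 30000 highest summits: the tail-to-tail difference was 2.83 points (1.24 without gene starts within 5 kb) and the tandem difference 7.42. Fewer windows then had a summit in at least 3 libraries (7227 against 16348), and windows without a summit tie at the bottom. The part of these ties in the smaller gaps was not tested.

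Head-to-head promoters differed from single promoters in their letters. RefSeq sequence was at hand for 1399 genes of head-to-head windows, 369 genes that start in tandem windows and 10163 genes with a single start. The median content of G and C was 62.3% at head-to-head starts, 58.0% at tandem starts and 55.7% at single starts. The CpG ratio (observed over expected from base content) reached at least 0.6 in 86.3% of head-to-head, 54.2% of tandem and 45.8% of single starts. A GC box occurred in 65.8% of head-to-head and 46.3% of single starts, against 45.2% of all 13320 promoters. The ETS site CCGGAAGT occurred in 13.2% of head-to-head and 4.71% of single starts (5.41% of all promoters), and AAGATGGCG in 5.22% and 1.76% (1.97% of all). TATAAA was less frequent, in 5.43% of head-to-head and 13.5% of single starts (15.0% of all), while CCAAT was found in 42.4% and 40.2% (41.1% of all). The PU.1 site GAGGAAGT, named for the macrophage factor encoded by Spi1, occurred in 2.36% of head-to-head and 2.94% of single starts (3.36% of all).

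The higher level of head-to-head windows was seen in both ranges of CpG content. Where the ratio was at least 0.6, 746 head-to-head windows averaged a percentile of 87.0 ± 1.61 and 4659 single starts 73.4 ± 2.26, a difference of 13.6 ± 0.885 (SD, n = 7). Where it was under 0.6, 114 head-to-head windows averaged 69.6 ± 2.36 and 5504 single starts 44.7 ± 0.833, a difference of 24.9 ± 3.12. Both differences were positive in 7 of 7 libraries (exact sign-flip permutation test, adjusted p = 0.0170). Within each of these ranges the CpG ratio itself can still differ between head-to-head and single starts, and its part in the result was not tested.

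**Figure D2:**
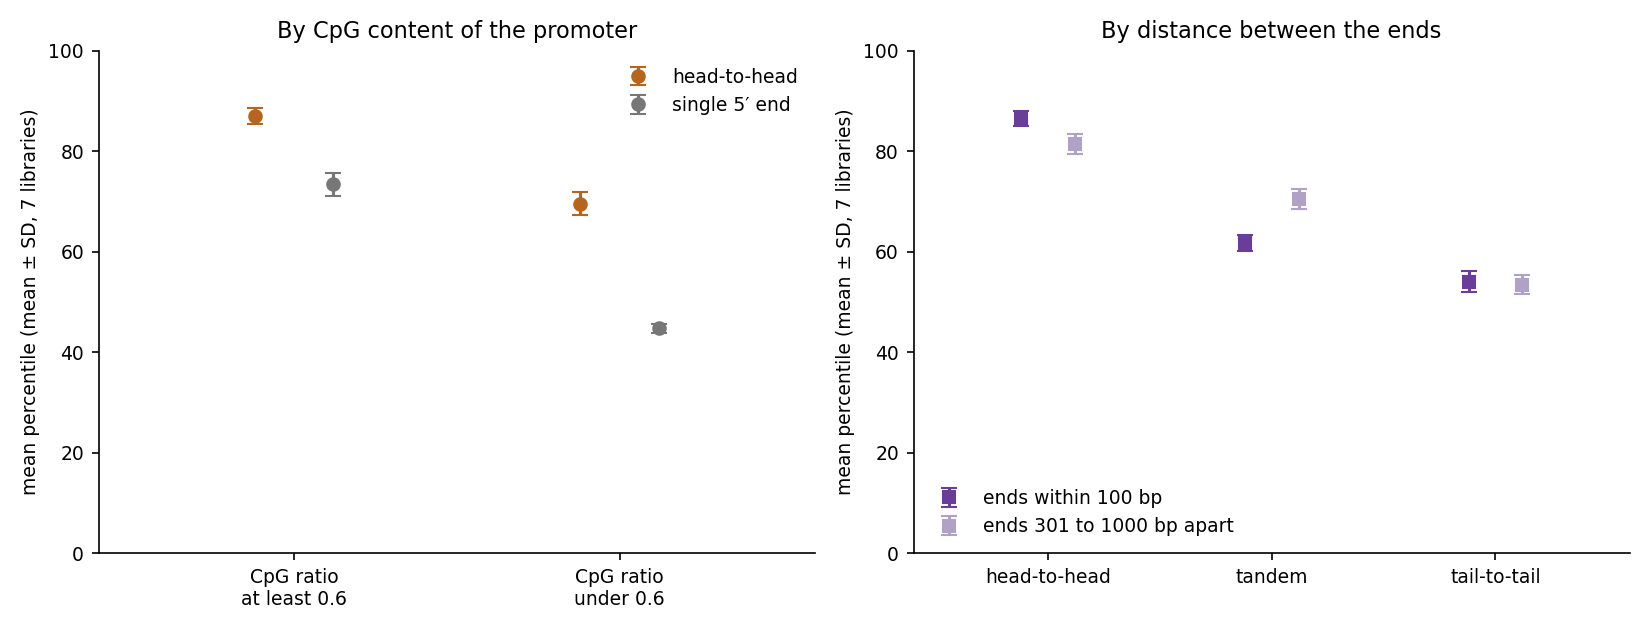
Mean percentile (mean ± SD over 7 libraries) of head-to-head windows and single gene starts by CpG ratio (left), and of each orientation by the distance between its ends (right). Head-to-head windows stand above single starts in both CpG ranges, and the close pairs are higher than the far pairs for head-to-head windows (86.5 against 81.5) and lower for tandem windows (61.8 against 70.4).

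Over all shared windows, pairs with ends within 100 bp ranked higher than pairs over 300 bp apart, at 72.4 against 65.9, a difference of 6.48 ± 0.555 (SD, n = 7; exact sign-flip p = 0.0156), although their windows were shorter (median length 2048 bp against 2608 bp). The direction was not the same in each orientation. Among head-to-head windows the 378 close pairs averaged 86.5 and the 247 far pairs 81.5, a difference of 5.08 ± 0.672. Among tandem windows the order turned round, with 61.8 in 79 close pairs and 70.4 in 364 far pairs, a difference of -8.61 ± 2.08. Both held in 7 of 7 libraries (exact permutation test, adjusted p = 0.0170). The close tandem windows were also the shorter ones (median length 2077 bp against 2645 bp), so in tandem windows length and level went the same way. Tail-to-tail windows had 54.1 in close and 53.5 in far pairs, a difference of 0.591 ± 0.849 that was not larger than the spread (exact permutation p = 0.141), and whose sign and call changed with the flank of the window. At the limit of the rule, 302 windows with ends 801 to 1000 bp apart averaged a percentile of 64.3 ± 1.93, and 230 windows with ends 1001 to 1200 bp apart, just outside it, 67.9 ± 2.88 (SD, n = 7).

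The highest summit lay at different places in the 3 kinds of window. In head-to-head windows it fell between the 2 starts in 26.6 ± 3.88% of cases, although that stretch made up 9.14% of the window (SD, n = 7; exact sign-flip permutation test, adjusted p = 0.0170), and its median distance from the midpoint was 195 ± 30.6 bp. In tail-to-tail windows it fell between the finishes in 10.9 ± 1.69% of cases, against 13.7% of the window (exact permutation test, adjusted p = 0.0170), with a median distance of 656 ± 37.6 bp from the midpoint. That shortfall missed the threshold with the lists limited to 30000 summits (-3.12 points, exact permutation p = 0.0625). In tandem windows the highest summit was nearer the gene start than the neighbour's finish in 72.1 ± 3.88% of cases (exact permutation test against 50%, adjusted p = 0.0170). It lay a median 37.7 ± 43.7 bp inside the gene from that start, against 77.1 ± 28.4 bp at single gene starts.

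**Figure D3:**
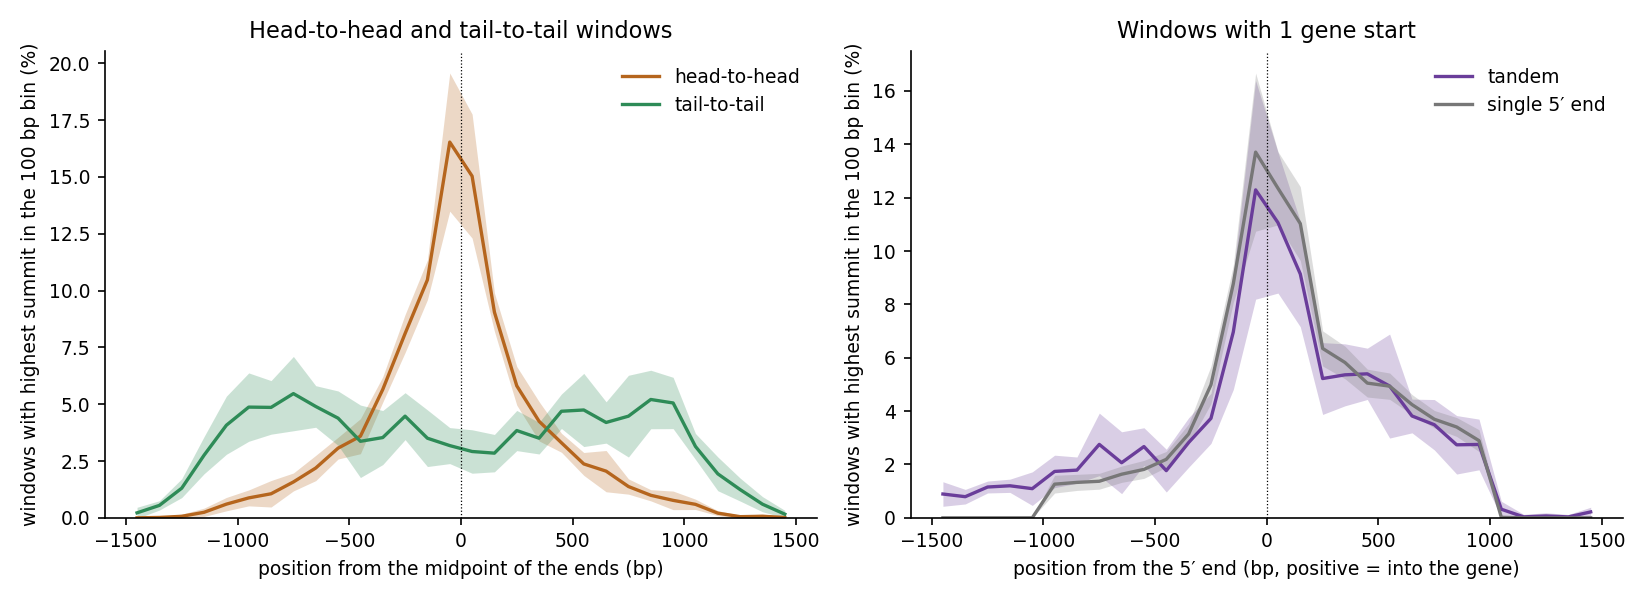
Percentage of marked windows whose highest summit fell in each 100 bp bin, as the mean (line) ± SD (shade) over 7 libraries: head-to-head and tail-to-tail windows around the midpoint of the ends (left, along the chromosome), tandem windows and single gene starts around the start (right, along the gene). Head-to-head windows peak in the bins on either side of the midpoint (16.5% and 15.0%), where tail-to-tail windows have 3.18% and 2.92%.

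The 10 shared windows with the highest mean percentile over the 7 libraries held genes of cell division, splicing, translation and mitochondria, among others. Cdc26/Prpf4 (chr4:62408625-62408762, the positions of the gene ends, as below), which pairs a subunit of the anaphase-promoting complex with a splicing protein, reached 99.88, 99.81, 99.98 and 99.89 in the pracinostat libraries, against 99.87, 99.92 and 99.87 in the DMSO libraries. Its highest summit lay between the 2 starts in 7 of 7 libraries. The groups overlapped, and the spread over all 7 libraries was 0.0540.

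Rita1/Ddx54 (chr5:120612589-120613082), where Ddx54 makes an RNA helicase, reached 99.99, 99.92, 99.79 and 99.85 with pracinostat, against 99.90, 97.5 and 99.94 with DMSO, and its highest summit was also between the starts in 7 of 7. DMSO replicate 2 was the low library. Mrpl41/Pnpla7 (chr2:24975098-24975990), with a subunit of the mitochondrial ribosome, and Hdlbp/Septin2 (chr1:93478917-93478981), with a lipoprotein-binding RNA binder and a cytoskeletal GTPase, are head-to-head as well, at means of 99.5 ± 0.756 and 99.5 ± 0.604 over 7 libraries. Glyr1/Ubn1 (chr16:5049938-5050057), a nucleosome-binding factor and a subunit of a histone H3.3 chaperone, averaged 99.3 ± 0.900. The tandem windows among the 10 highest were Atp5e/Prelid3b (99.5 ± 0.443), with a subunit of ATP synthase, Trex1/Atrip (99.4 ± 0.618), with a DNA exonuclease that restrains interferon responses, and Eif4a1/Senp3 (99.3 ± 0.502), with a translation initiation helicase. Adam9/Tm2d2 (99.5 ± 0.727) and Cep170/Sdccag8 (99.6 ± 0.193) had no strand given.

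Of 24 gene pairs that are known to lie close together, 18 formed a shared window, 13 of them head-to-head, and 16 were marked in all 7 libraries. Their median of mean percentiles was 91.2, against 74.5 over all shared windows. Purine synthesis genes were in this group: Gart/Son averaged 97.4 ± 1.70 and Paics/Ppat 91.4 ± 5.85 (SD, n = 7). Of DNA replication and repair, Pcna/Cds2, with the sliding clamp of DNA polymerase, averaged 96.5 ± 3.95. Atm/Npat, a DNA damage kinase and a coactivator of histone genes, averaged 93.9 ± 4.37, and Mcm4/Prkdc 91.0 ± 6.13. Mitochondrial pairs were Mrps12/Sars2 at 92.1 ± 3.82, Sirt3/Psmd13 at 91.6 ± 4.43 and Surf2/Surf1 at 90.4 ± 4.98.

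Tyrobp/Hcst (chr7:30417582-30417712), which encode the signalling adaptors DAP12 and DAP10 of myeloid and lymphoid receptors, reached 89.2, 86.4, 89.2 and 87.0 in the pracinostat libraries, against 85.9, 88.0 and 89.7 in the DMSO libraries. The groups overlapped. The lowest of the known pairs was Col4a2/Col4a1 (chr8:11312805-11312889), the collagen IV chains of basement membranes, which had a summit in 1 of 7 libraries.

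Psmb9/Tap1 (chr17:34187330-34187556) reached 95.9, 92.2, 96.2 and 95.0 in the pracinostat libraries, against 99.3, 88.0 and 94.8 in the DMSO libraries. The highest and the lowest of these values were DMSO libraries. Hspe1/Hspd1 (chr1:55088148-55088243) had 81.6, 93.0, 83.3 and 87.9 with pracinostat, against 93.9, 98.9 and 99.1 with DMSO. The groups did not overlap and the difference of -1.16 ± 0.379 normal-score units (limma, SE) did not pass adjustment (adjusted p = 0.489).

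The gene lists, which were chosen with earlier results of these data known, had their lowest median among tissue-restricted genes. Medians of mean percentiles were 88.7 in 64 windows with a gene of oxidative phosphorylation, 87.8 in 52 with a mitochondrial ribosome gene, 86.9 in 55 with a gene of DNA repair or replication, and 84.0 in 40 with a cytosolic ribosome gene. The list of macrophage receptors and adaptors had 87.6 in 12 windows, antigen presentation 88.6 in 14, lysosome and vacuolar ATPase 83.4 in 31, chromatin acetylation and deacetylation 83.1 in 23, the proteasome 80.5 in 26 and replication-dependent histones 77.8 in 48. Olfactory, vomeronasal and taste receptors, keratins and similar genes had 35.7 in 18 windows. All shared windows had 74.5. The share of a list's genes that lay in a shared window also varied, at 64.2% for replication-dependent histones, 57.6% for DNA repair and replication, 55.6% for oxidative phosphorylation and 55.1% for the mitochondrial ribosome, 18.6% for macrophage receptors and adaptors and 1.23% for tissue-restricted receptors and keratins, against 24.1% of all genes.

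High windows of these lists included Tada3/Arpc4 (mean percentile 99.0 ± 1.69; a subunit of acetyltransferase complexes), Psme2/Rnf31 (99.0 ± 0.855; the proteasome activator PA28 beta), Gabpa/Atp5j (98.5 ± 1.23; an ETS factor and a subunit of ATP synthase), Mrpl32/Psma2 (98.1 ± 1.66; mitochondrial ribosome and proteasome) and Clhc1/Rps27a (97.4 ± 1.10). Cd68/Eif4a1 (chr11:69666170-69666936), a tandem window with the macrophage lysosomal glycoprotein Cd68, averaged 95.2 ± 3.74, and Ctu1/Siglece, with an inhibitory sialic acid receptor, 92.7 ± 4.05. In the list of tissue-restricted genes, the windows marked in all 7 libraries were Zbtb48/Tas1r1 (93.7 ± 4.67), Vmn1r4/Nt5c3 (89.6 ± 7.04) and Tas1r1/Nol9 (75.2 ± 10.1), where a taste or vomeronasal receptor gene lies beside a gene of broad use. Low members were present in other lists too. Vrk2/Fancl, Mrps18c/Abraxas1 and Mrps23/Cuedc1 had no summit in any library, although they hold genes of DNA repair or the mitochondrial ribosome. Mrps23/Cuedc1 is tandem and the other two are tail-to-tail.

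**Figure D4:**
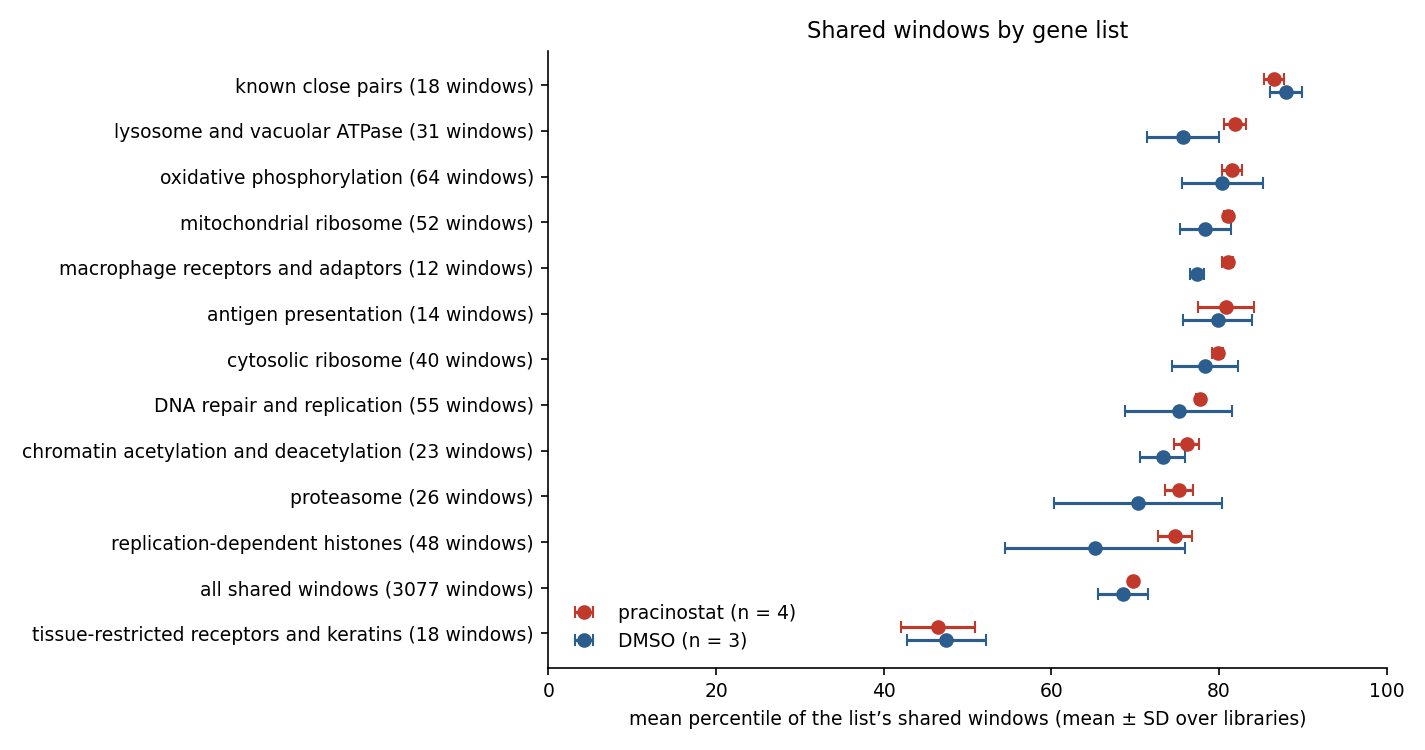
Mean percentile of the shared windows of each gene list (number of windows in brackets), as mean ± SD over the 4 pracinostat libraries (red, above) and the 3 DMSO libraries (blue, below). Tissue-restricted receptors and keratins lie lowest, at 46.4 with pracinostat and 47.5 with DMSO, and the DMSO error bars are wider than the pracinostat ones for every list drawn.

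There were 32 head-to-head windows without a summit in any H3K27ac library. Among them were Zic4/Zic1, the subunits Gabrb1/Gabra4 of the inhibitory GABA receptor of neurons, the olfactory receptor pairs Olfr32/Olfr1270 and Olfr181/Olfr183, and Slc30a3/Dnajc5g, where Slc30a3 is the zinc transporter of synaptic vesicles. Of the 29 with a CpG ratio, 14 reached at least 0.6, among them Ina/Nt5c2 with a ratio of 1.03. At the other extreme of the tail-to-tail windows, Wdr74/1700092M07Rik (mean percentile 99.0), Smim27/Ndufb6 (96.4), Mfsd12/Fzr1 (93.5) and Shisa5/Trex1 (91.9) were marked in all 7 libraries. The Shisa5/Trex1 finishes (chr9:109057792-109057932) lie within 5 kb of the Trex1 start (chr9:109059723), which belongs to the high Trex1/Atrip window. How near gene starts lie to the other windows is not given here. The windows named in this paragraph were chosen after their values were seen.

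On chromosome X, 14 of 25 head-to-head windows (56.0%) were marked in all 7 libraries, against 691 of 885 (78.1%) on the autosomes. Single gene starts had the same order, with 12.4% on chromosome X and 29.7% on the autosomes. Overlap of the genes went with fewer marked windows for tandem pairs: 60.3 ± 4.03% of 73 overlapping and 77.0 ± 2.08% of 481 separate pairs in pracinostat libraries, and 56.2 ± 11.7% of overlapping and 70.8 ± 15.2% of separate pairs in DMSO libraries. No test was run on the values of this paragraph.

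To ask whether the deacetylase inhibitor moved the mark at shared windows, pracinostat was compared with DMSO. The lead of shared over single-end windows was 21.5 percentile points in pracinostat libraries and 20.2 in DMSO libraries, a difference of 1.33 (two-sided exact permutation test over 35 splits, p = 0.857). Without DMSO replicate 2 the difference was -0.571, with the sign turned. Both remaining DMSO leads then lay above every pracinostat lead (exact permutation p = 0.133, the smallest that 4 against 2 libraries allow). Neither these splits nor the 35 splits of all libraries can give a p under 0.05, so these tests cannot decide the question. Head-to-head windows averaged a percentile of 85.1 ± 0.475 with pracinostat and 83.8 ± 2.80 with DMSO (two-sided exact permutation p = 0.686). Tandem windows had 69.5 ± 0.800 and 68.6 ± 2.71 (exact permutation p = 0.743), and tail-to-tail windows 53.8 ± 0.503 and 52.9 ± 3.12 (exact permutation p = 0.857; SD, n = 4 and 3). Because a percentile ranks windows against each other, a shift that raised or lowered every window of a library equally could not be seen.

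Single windows were compared with limma over 16348 windows with a summit in at least 3 libraries, 2500 of them shared. Their highest summits were ranked again within each library among these windows alone, and these ranks were turned into normal scores. Of the shared windows 1 passed an adjusted p of 0.05 (0.0400%), where 5 of all tested windows did (background 0.0306%). At an unadjusted p under 0.05, 69 shared windows were higher (2.76%, background 3.04%) and 88 lower with pracinostat (3.52%, background 3.4%). These shares are near the background. All pracinostat percentiles lay above all DMSO percentiles in 79 shared windows (3.16%, background 3.89%) and below them in 74 (2.96%, background 2.06%); windows without a summit tie at a different percentile in each library, which enters these counts. By orientation, 25 were higher and 27 lower of 851 head-to-head windows, and 16 and 19 of 450 tandem windows. Of 494 tail-to-tail windows 4 were higher (0.810%) and 23 lower (4.66%). Without DMSO replicate 2, 4 tail-to-tail windows were higher (0.821%) and 9 lower (1.85%) of 487, where all tested windows had 2.55% higher and 2.66% lower. Without pracinostat replicate 3, 2 were higher (0.447%) and 14 lower (3.13%) of 447, where all tested windows had 3.04% higher and 3.13% lower.

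The window that passed was Pnpla2/Cracr2b (chr7:141460743-141460875; strand not given). Pnpla2 encodes adipose triglyceride lipase, which starts the breakdown of stored fat, and Cracr2b a regulator of calcium entry. Its percentiles were 98.0, 98.2, 99.2 and 98.7 in the pracinostat libraries, against 90.7, 38.8 and 79.1 in the DMSO libraries, where DMSO replicate 2 had no summit. All pracinostat libraries lay above all DMSO libraries. The difference was 1.79 ± 0.382 normal-score units (SE; limma adjusted p = 0.0170). Without the pracinostat libraries this window would have missed the minimum of 3 libraries. With no such minimum it was still called. Leaving out DMSO replicate 2, DMSO replicate 3 or any pracinostat replicate ended the call: the adjusted p was 0.525 without DMSO replicate 2, 0.0685 without DMSO replicate 3 and 0.0705 to 0.224 without a pracinostat replicate.

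No shared window was lower at an adjusted p under 0.05, against 88 at an unadjusted p under 0.05 in the same limma fit. The 6 with the smallest p had adjusted p-values of 0.122 to 0.401. Slc35a1/Cfap206 (chr4:34688113-34688574), with the transporter of CMP-sialic acid into the Golgi, had percentiles of 78.7, 72.3, 29.1 and 27.04 with pracinostat, the final 2 without a summit, against 91.0, 91.4 and 86.1 with DMSO. It would have missed the minimum of 3 libraries without the DMSO libraries, so its difference of -1.52 ± 0.383 normal-score units is a description. The groups did not overlap.

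Hps5/Gtf2h1 (chr7:46796065-46796094), a factor of lysosome-related organelles opposite the TFIIH subunit, had 84.1, 88.2, 77.1 and 95.0 with pracinostat, against 98.3, 99.97 and 94.5 with DMSO. Pracinostat replicate 4 lay above the lowest DMSO library. Its difference was -1.51 ± 0.388, and without DMSO replicate 3 it passed at -2.01 ± 0.447 (limma adjusted p = 0.0165). Sugp2/Armc6 (chr8:70234188-70234446), where Sugp2 encodes an RNA-binding protein with a G-patch domain, had 84.1, 81.3, 73.4 and 88.8 with pracinostat, against 97.6, 98.9 and 94.8 with DMSO, a difference of -1.33 ± 0.370. Rps28/Ndufa7 (chr17:33824562-33824572), a ribosomal protein beside a subunit of respiratory complex I, had 86.3, 95.9, 87.0 and 91.1 with pracinostat, against 99.2, 99.4 and 99.1 with DMSO, a difference of -1.31 ± 0.396. In both pairs the groups did not overlap and every library had a summit.

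Cnih2/Rab1b (chr19:5098521-5099207), an auxiliary subunit of AMPA receptors beside a GTPase of traffic from the endoplasmic reticulum, had 66.0, 28.6, 29.1 and 27.04 with pracinostat, 3 of them without a summit, against 80.5, 81.7 and 80.4 with DMSO. B3gntl1/Tbcd (chr11:121616197-121617170), with a tubulin folding cofactor, had no summit in any pracinostat library, against 69.7, 81.7 and 71.9 with DMSO. It met the minimum of 3 libraries through the DMSO libraries alone, so it had to differ to be tested, and its difference of -1.30 ± 0.393 is a description. Cnih2/Rab1b would also have missed that minimum without the DMSO libraries, and its difference of -1.44 ± 0.428 is a description as well. Its groups did not overlap. In both windows the value of 81.7 in DMSO replicate 2 came from a summit score of 1.43.

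The shared windows with the next smallest p among those higher with pracinostat, named after their values were seen, all lacked a summit in DMSO replicate 2, and none passed adjustment (limma adjusted p = 0.342 to 0.490). They were Pfdn5/Myg1 (difference 1.28 ± 0.372; a subunit of the chaperone prefoldin), H2ac22/H2bc22 (1.30 ± 0.383; core histones), Clip3/Alkbh6 (1.24 ± 0.399, where Alkbh6 belongs to the AlkB family of dioxygenases), Madcam1/Tpgs1 (1.12 ± 0.363; a vascular adhesion molecule) and Ftsj3/Psmc5 (1.15 ± 0.375; an ATPase of the proteasome). H2ac22/H2bc22 had 75.1, 74.6, 92.8 and 93.0 with pracinostat, against 29.8, 38.8 and 63.0 with DMSO, where 2 of the 3 libraries had no summit. Each window named in this paragraph would have missed the minimum of 3 libraries without the pracinostat libraries, so these differences are descriptions.

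**Figure D5:**
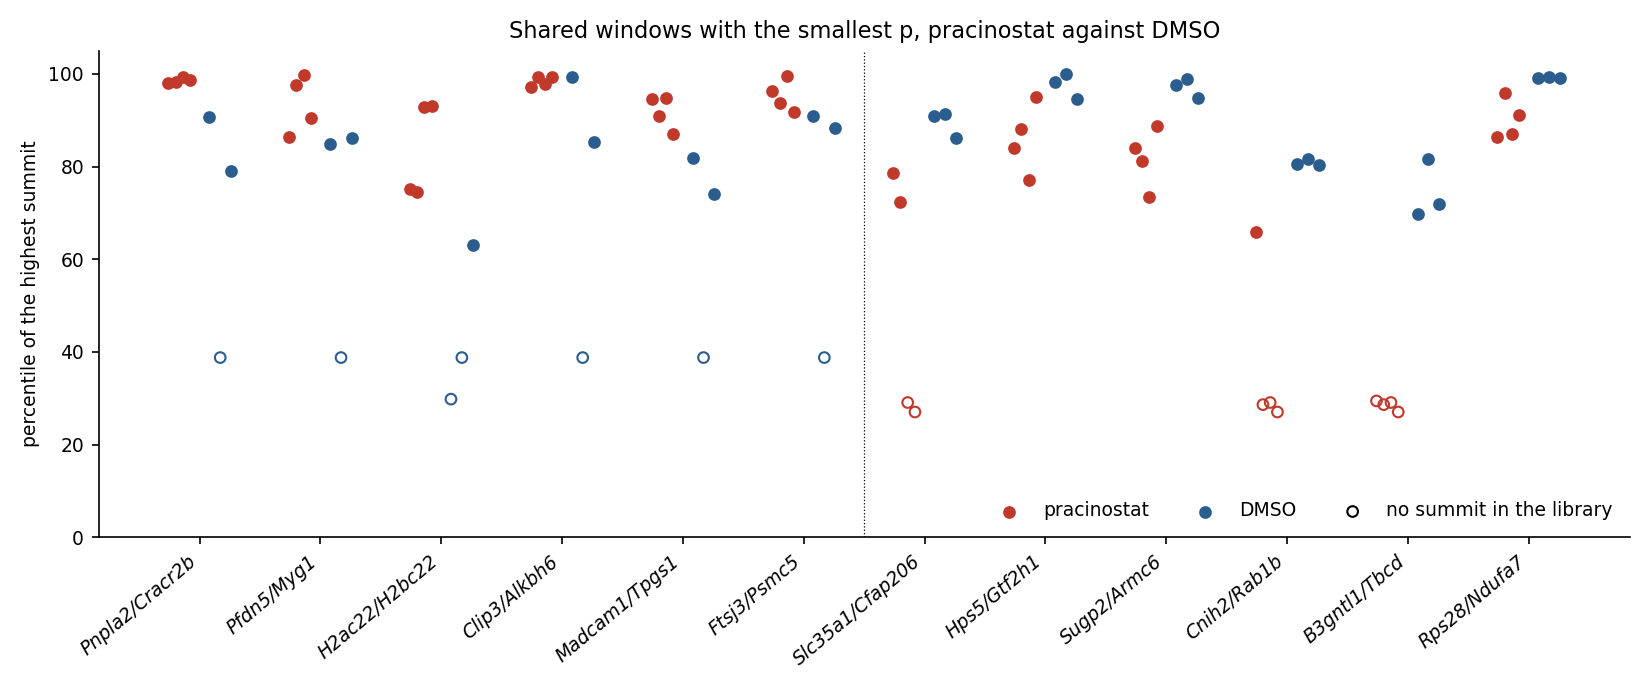
Percentile of the highest summit in each library (pracinostat in red, DMSO in blue) for the 6 shared windows with the smallest p among those higher (left of the dotted line) and the 6 among those lower with pracinostat; open points are libraries without a summit in the window. In every window on the left an open DMSO point at 38.8 is replicate 2.

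None of the gene lists had a shared window past the adjusted threshold. At an unadjusted p under 0.05, where all tested windows had 3.04% higher and 3.4% lower and the shared windows 69 higher and 88 lower of 2500, replication-dependent histones had 6 higher and 0 lower of 40 tested windows and a median difference of 0.25 normal-score units, with 32 differences above 0. Their mean percentile was 74.8 ± 2.03 with pracinostat and 65.2 ± 10.7 with DMSO; windows overlap in the histone clusters and share summits, as in 3 windows of H2ac20, H2ac21 and H2bc21 with the same percentiles. The lysosome list had 0 higher and 1 lower of 30, a median difference of 0.23 and 24 differences above 0. The proteasome had 5 higher and 1 lower of 24 with a median of -0.04, and DNA repair and replication 4 higher and 0 lower of 48 with a median of 0.06. All 2500 tested shared windows had a median of -0.02, with 1202 above 0.

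Windows that came up in earlier results of these data gave mixed values. Pcgf2/Psmb3 (chr11:97702434-97703434), a Polycomb subunit opposite a proteasome subunit, averaged 94.9 ± 6.01, and its highest summit was nearer the Psmb3 end in 7 of 7 libraries. Acaca/Tada2a (chr11:84129635-84129644), with the enzyme that begins fatty acid synthesis and an acetyltransferase adaptor, had 29.4, 65.0, 29.1 and 70.5 with pracinostat, against 85.4, 91.4 and 27.3 with DMSO. In 3 libraries it had no summit, and the groups overlapped. Rack1/Trim41 (68.8 ± 14.1) and Cisd3/Pcgf2 (58.1 ± 18.1) are tail-to-tail.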

How the data were processed

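H3K27ac and IgG CUT&Tag libraries were deposited by the authors as lists of peak summits. Per the submitters' processing notes the build was mm10 and the tools were Bowtie2, MACS2 2.2.9.1, DESeq2 and HOMER, with no roles given. The deposited column 5 holds a −log10 significance for each summit, called by the authors for each library; whether it is of p or of q is not given in the sources used here. Gene ends came from the RefSeq table of the same assembly, after 108 genes were left out whose positions under 3000000 fit unplaced scaffolds.

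Members, gene lists and comparisons were chosen with earlier results of these data known, and some kinase and other names were removed from the ribosome and proteasome lists after seeing what the name patterns matched. Each window took the highest column 5 value of its summits, as a percentile among all 37125 windows of the library. Library means were compared by exact sign-flip permutation over the 7 libraries, and groups by exact permutation over 35 splits. Single windows with a summit in at least 3 libraries were tested with limma 3.58.1 (R 4.3.3, statmod 1.5.0), with Benjamini-Hochberg adjustment over all 16348 windows. The values tested were normal scores of the highest summits, ranked again among these windows. On simulated data with 200 changed windows of 16348, this test recovered 4.48% of shifts of 1 normal-score unit, 65.7% of shifts of 2 and 87.9% of shifts of 3, with 4 false calls. The simulated noise was independent, with 1 SD per window for all libraries, and no window lacked a summit or shared one. The real lists differ in this, so these rates may not hold for them. Named windows were the 10 highest, the 6 with the smallest limma p that were lower, the called window, known close pairs, the 3 highest and 2 lowest of each list (some are not reported here), windows known from earlier results and 3 with the most IgG summits; other names were chosen after their values were seen, as said beside them. Same-numbered replicates did not deviate together (correlations -0.0448, -0.00853 and -0.0361), so the numbers were not taken as pairs. The alternatives were other flanks, equal length, 30000 highest summits per list, merged windows, isolated single ends, summed scores, other filters and scales, and each replicate left out. Python 3.11.15, numpy 2.4.6, pandas 2.3.3 and scipy 1.17.1 were used.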

Additional observations from a re-analysis of the deposited data

Results flagged for a closer look

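In 64 values checked within the 4 pracinostat libraries, 4 had a single library far from the other 3 by the gap to the nearest library over the whole range; chance flags about 1 in 20 such groups. Pracinostat replicate 4 had a summit in 63.5% of tail-to-tail windows, against 56.4% to 56.9% in the other pracinostat libraries; it also listed the most summits of these 4, 289017, and the part of that in this value was not tested. Cnih2/Rab1b had a percentile of 66.0 in pracinostat replicate 1 and no summit in the others (27.04 to 29.1). Gart/Son had 94.0 in pracinostat replicate 2, where the others had 98.2 to 98.7. Mrpl41/Pnpla7 had 97.8 in pracinostat replicate 1, where the others had 99.7 to 99.97.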

How the results depend on the processing

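Of 291 values of the comparisons under other settings, 264 kept their direction and their side of the threshold. Another 20 weakened, 2 passed the threshold, 4 changed sign and 1 count rose by more than 1.5 times. The 20 include each setting in which the count of called shared windows fell from 1 to 0, and the others of them fell below the threshold. Of 1225 levels of named windows, 1187 stayed within 1 SD. The distance difference of tail-to-tail windows was -2.12 with flanks of 500 bp (exact permutation p = 0.0313), -0.198 with merged windows, 3.25 with flanks of 2 kb and 3.58 at equal length. Their share of highest summits between the ends differed by -3.12 points with 30000 summits per list. The lead of shared windows, pracinostat minus DMSO, was -0.0863 with 30000 summits per list, and -0.571 to 2.31 with a library left out. The IgG difference was 0.148 at equal length and 0.256 to 0.356 with a library left out; with 1 left out, 6 of the 7 values missed the threshold, where the smallest possible exact p is 0.0313. The count of called shared windows was 0 with flanks of 500 bp or 2 kb, with 30000 summits, with a summit in all 7 libraries, with summit number as a covariate and with array weights, and 0 to 2 with a library left out: 2 without DMSO replicate 1 (Clip3/Alkbh6 joined, limma adjusted p = 0.0438) and 1 without DMSO replicate 3. The cause was not tested. The CpG ranges and the tandem position gave no value for merged windows. With the replicate number as a block, 0 shared windows were called (Pnpla2/Cracr2b, limma adjusted p = 0.151). The number of reads behind each list was not used here, and DMSO replicate 2, with the fewest summits, sets most of the DMSO spread.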
